A study of Homo sapiens with 9 samples.

Results

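The cell division genes described here are 40 genes that cells use to copy their DNA and to divide: 2 general proliferation markers, 7 cyclins and regulators of CDK1, 7 mitotic kinases and spindle checkpoint genes, 2 genes of the anaphase-promoting complex, 4 mitotic kinesins, 4 genes of the centromere and of the chromosomal passenger complex, 3 transcription factors, 8 genes that license and open DNA for replication, and 3 genes of the replication clamp and nucleotide supply. They were taken by name, as every probe carrying one of the 40 symbols, and the list was chosen with earlier results of these data known. All 40 were on the array, on 52 probes, and all 40 passed the filter on dim probes, among 20109 genes tested. The question addressed is whether the proliferation state, as far as these RNAs show it, differed between the lines.

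RNA was measured on 9 single-color microarrays. The 3 stable lines, with 3 arrays each, were made from T47D, an established estrogen receptor-positive line of human breast cancer. T47D-PA6 carried an expression vector for full-length PTH-AS, T47D-PA5 carried one for an incomplete PTH-AS, and T47D-VC1 carried the empty vector. PTH-AS is a long intergenic noncoding RNA, encoded downstream of the parathyroid hormone gene and antisense to it. All 3 lines had been through transfection and drug selection, and each group stands for 1 selected line, so a difference between lines is a difference between single transfectants. No source states whether the 3 arrays of a line came from separate cultures, so the p-values measure only the spread between these arrays, which may be technical.

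Proliferating cells switch on 2 waves of genes. The first wave, at the passage from G1 into S phase, is driven by E2F factors once the retinoblastoma protein is phosphorylated, and it supplies the MCM helicase, its loaders CDC6 and CDT1, cyclin E, and the enzymes that make nucleotides. The second wave, in G2 and M phase, is driven by FOXM1 and MYBL2 together with the MuvB complex and supplies cyclin B, CDK1, the spindle kinases, kinesins and centromere proteins. Growth of luminal breast cancer cells such as T47D is usually driven through estrogen receptor and cyclin D1, upstream of both waves.

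Slide 1 carried replicate 1 of each line and was scanned in a run of its own, before the others. Slide 2 held replicate 2 of T47D-VC1 and of T47D-PA5, and slide 3 held the other 4 arrays, among them replicates 2 and 3 of T47D-PA6. Between 44% and 48% of each array's probes were well above background, no spot was saturated, and the precision is limited by the number of arrays. The 8 luminal breast markers that were checked, among them ESR1, GATA3 and KRT18, were well above background on all 9 arrays. Of 8 markers of other cell types, 7 were on the array. ACTA2, COL1A1 and PTPRC were well above background on all 9 arrays, KRT14 was so on 3, and CD3E, COL1A2 and PECAM1 were so on none. PTPRC read only 13.3 to 27.4, where the lowest signal counted as well above background was 4.56 to 14.3 by array. The summed signal of these 7 ranged from 776 to 1190 on the T47D-VC1 arrays, from 1200 to 1290 for T47D-PA5 and from 1250 to 1730 for T47D-PA6, and its part in the results was not tested. Its largest part was ACTA2, at 372, 830 and 700 in T47D-VC1 and 960, 1414 and 1424 in T47D-PA6. COL1A1 went the other way, from 364, 325 and 354 to 240, 235 and 265. In RNA from a whole culture, fewer cells in a phase and less of an RNA in each cell cannot be told apart.

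With all 9 arrays, few of the 40 genes passed the test, and all that passed were lower in T47D-PA6. In limma over all genes, with Benjamini-Hochberg adjustment and a threshold of 0.05, T47D-PA6 had 1 member lower than T47D-VC1 and 0 higher. The lower one was CDC6, which loads the MCM helicase onto replication origins. Among all genes tested in this comparison, 5.34% were called lower. At an unadjusted p under 0.05, 7 members were lower, against 15.7% of all genes. Between T47D-PA6 and T47D-PA5, 4 members were lower and 0 higher: CENPF, CCNE2, CDC6 and MCM2, against 6.06% of all genes called lower. At an unadjusted p under 0.05 in limma, 13 members were lower there, against 2916 of the 20109 genes tested. Between T47D-PA5 and T47D-VC1, 0 members passed in limma, where 1.67% of all genes were called in either direction, and 1 had an unadjusted p under 0.05, against 15.6% of all genes. In T47D-PA6 over T47D-VC1 the counts of 1 and of 7 of 40 are near their backgrounds. Relative to T47D-PA5, 4 of 40 is close to its own, while 13 of 40 is above its own, which was not tested.

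As a group, the members shifted by small amounts. Their median log2 difference was -0.17 in T47D-PA6 over T47D-VC1, where that of all genes was -0.03, with 31 of 40 below 0. For T47D-PA5 over T47D-VC1 the median was 0.12, against -0.03 for all genes, with 34 of 40 above 0. In T47D-PA6 over T47D-PA5 it was -0.26, against -0.00086 for all genes, with 37 of 40 below 0. Each line enters 2 of these comparisons, so they are not independent of each other. The 95% interval of the difference lay within 2-fold in both directions for 35 of 40 members in T47D-PA6 over T47D-VC1. That held for 40 members in T47D-PA5 over T47D-VC1 and for 31 in T47D-PA6 over T47D-PA5. Of the 20109 genes tested, it held for 16009, 16886 and 16060 in the same order of comparisons. Leaving out T47D-VC1 replicate 1 raised the members called lower to 9 in T47D-PA6 over T47D-VC1 and to 10 in T47D-PA6 over T47D-PA5, and it turned the median in T47D-PA5 over T47D-VC1 to -0.11.

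**Figure D1:**
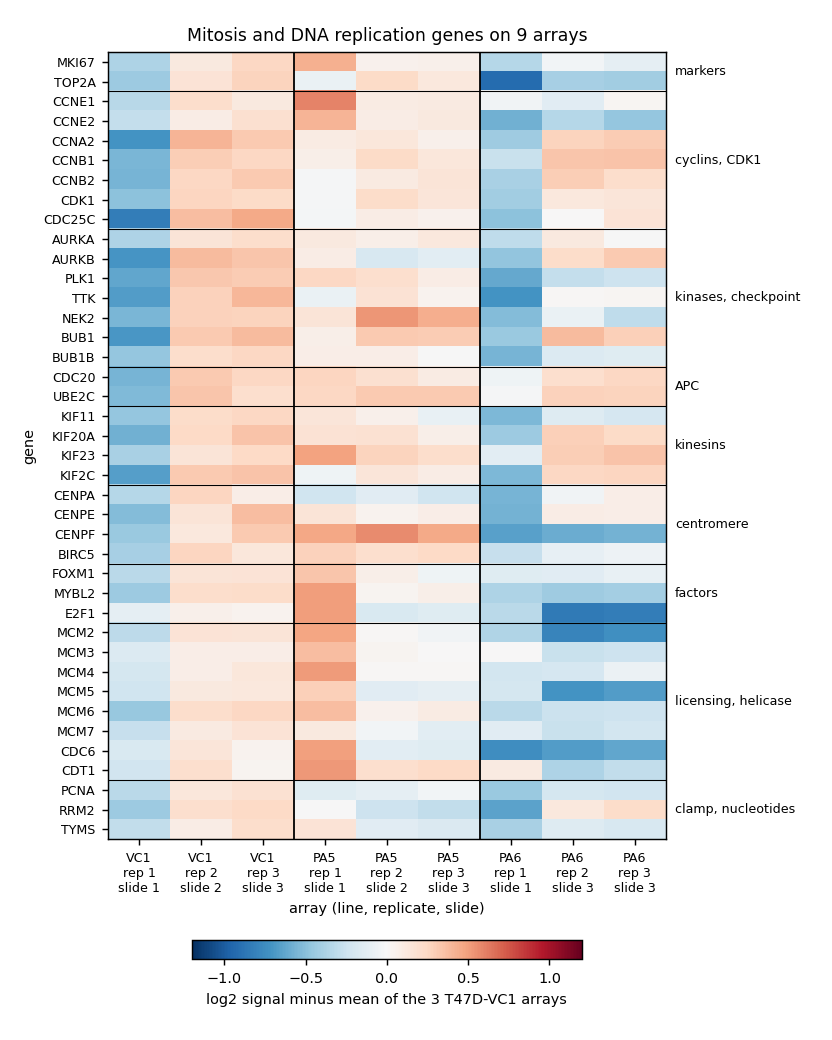
The 40 genes (rows, by role) on the 9 arrays (columns, by line, replicate and slide), as log2 signal minus the mean of the 3 T47D-VC1 arrays, blue for lower and red for higher. T47D-VC1 replicate 1 is the lowest T47D-VC1 array for 40 of 40 genes, and CENPF, CCNE2, CDC6, MCM2 and E2F1 are blue on all 3 T47D-PA6 arrays.

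CENPF, a large kinetochore protein that appears in G2 and is widely read as a proliferation marker, had the largest difference among the members. Its normalized signal was 10562, 15685 and 17880 on the T47D-VC1 arrays in the order of replicates 1 to 3, 19824, 21344 and 19714 in T47D-PA5, and 9139, 9502 and 9699 in T47D-PA6. The 3 lines did not overlap, with T47D-PA5 highest and T47D-PA6 lowest. CENPF fell by 1.1 on the log2 scale in T47D-PA6 relative to T47D-PA5 (SE 0.18, adjusted p = 0.0085 in limma), and the same difference was -1.12 on slide 1 and -1.1 on slides 2 and 3. Its difference from T47D-VC1 was -0.6 in T47D-PA6 (adjusted p = 0.068 in limma) and 0.5 in T47D-PA5 (adjusted p = 0.22 in limma).

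CCNE2 encodes cyclin E2, a partner of CDK2 at the start of S phase and a target of E2F. Its signal was 771, 1001 and 1075 in T47D-VC1, 1250, 1001 and 1016 in T47D-PA5, and 630, 743 and 680 in T47D-PA6. Every T47D-PA6 array was below every array of the other lines, and those 2 lines overlapped. The fall from T47D-PA5 was 0.67 on the log2 scale (SE 0.15, adjusted p = 0.031 in limma), and the difference from T47D-VC1 was -0.46 (adjusted p = 0.095 in limma). CCNE1, its paralog, read 1062, 1547 and 1453 in T47D-VC1, 2025, 1434 and 1444 in T47D-PA5, and 1300, 1217 and 1359 in T47D-PA6. For CCNE1 the T47D-PA6 arrays lay inside the range of T47D-VC1, with a log2 difference of -0.05 (95% interval -0.47 to 0.37, adjusted p = 0.9 in limma).

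CDC6 was a dim probe that was well above background on all 9 arrays. Its signal was 62, 77.7 and 72.3 in T47D-VC1, 98.7, 64.4 and 63.7 in T47D-PA5, and 42, 44.1 and 45.8 in T47D-PA6. The T47D-PA6 arrays lay below all others. CDC6 fell by 0.68 on the log2 scale relative to T47D-VC1 (SE 0.18, adjusted p = 0.047 in limma) and by 0.75 relative to T47D-PA5 (SE 0.18, adjusted p = 0.034 in limma). With the replicate number as a block these adjusted p-values were 0.068 and 0.055 in limma, so both calls were lost there. With 1 array left out in turn, the adjusted p relative to T47D-VC1 in limma was 0.011 to 0.14. MCM2, a subunit of the replicative helicase, read 3598, 5007 and 5002 in T47D-VC1, 6240, 4526 and 4357 in T47D-PA5, and 3483, 2587 and 2695 in T47D-PA6. Its lowest T47D-VC1 array and its highest T47D-PA6 array were both on slide 1, where the log2 difference was -0.05, although the lines did not overlap. The fall of MCM2 from T47D-PA5 was 0.78 (SE 0.2, adjusted p = 0.044 in limma, and 0.064 with the replicate number as a block), and its difference from T47D-VC1 was -0.63 (adjusted p = 0.082 in limma).

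E2F1, the factor that gives the G1/S wave its name, read 1694, 1904 and 1871 in T47D-VC1, 2572, 1608 and 1645 in T47D-PA5, and 1456, 1013 and 1026 in T47D-PA6. All T47D-PA6 arrays were below all other arrays. Its log2 difference was -0.66 from T47D-VC1 (SE 0.21, adjusted p = 0.084 in limma) and -0.72 from T47D-PA5 (SE 0.21, adjusted p = 0.069 in limma, and 0.05, just under the threshold before rounding, with the replicate number as a block). CENPF, CCNE2, CDC6, MCM2 and E2F1 were the 5 members whose T47D-PA6 arrays all lay below those of T47D-VC1, while 17.8% of all genes did so. Against T47D-PA5 the T47D-PA6 arrays lay below without overlap for 22 of 40 members, against 18.4% of all genes. With 3 arrays in each of 2 lines, the smallest p that a two-sided exact permutation test allows is 0.1, so none is given for single genes.

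The general proliferation markers differed in size. MKI67, which encodes the Ki-67 antigen, read 304, 426 and 465 in T47D-VC1, 527, 407 and 410 in T47D-PA5, and 309, 384 and 364 in T47D-PA6. The lines overlapped, except that the T47D-PA6 arrays were all below those of T47D-PA5. The log2 difference of MKI67 in T47D-PA6 over T47D-VC1 was -0.16 (95% interval -0.58 to 0.26, adjusted p = 0.63 in limma). Its 2 other probes gave -0.09 and -0.51, the latter from the dimmest of the 3. TOP2A, the topoisomerase that untangles chromosomes before they part, read 3165, 4796 and 5125 in T47D-VC1, 4048, 4993 and 4658 in T47D-PA5, and 2246, 3229 and 3189 in T47D-PA6. The 2 later T47D-PA6 arrays lay just above the slide 1 array of T47D-VC1 and below every other array of the 2 lines. TOP2A differed by -0.58 in T47D-PA6 over T47D-VC1 (adjusted p = 0.12 in limma) and by -0.68 over T47D-PA5 (adjusted p = 0.089 in limma). With the replicate number as a block these passed, at adjusted p = 0.024 and 0.016 in limma.

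CCNB1, CDK1, FOXM1 and PCNA did not pass between T47D-PA6 and T47D-VC1 over the 9 arrays, and their intervals were wide. CCNB1, the cyclin that activates CDK1 at mitosis, read 10960, 19558 and 19034 in T47D-VC1, 16797, 18703 and 17502 in T47D-PA5, and 13273, 20133 and 20236 in T47D-PA6. CDK1, the mitotic kinase itself, read 5968, 10008 and 9832 in T47D-VC1, 8300, 9754 and 9272 in T47D-PA5, and 6289, 9121 and 9258 in T47D-PA6. In both genes replicate 1 was the lowest array of each line, and the lines overlapped. The log2 difference in T47D-PA6 over T47D-VC1 was 0.14 for CCNB1 (95% interval -0.43 to 0.7) and -0.05 for CDK1 (95% interval -0.57 to 0.47), with adjusted p = 0.78 and 0.92 in limma. FOXM1, the factor that drives the G2/M wave, read 1514, 2107 and 2125 in T47D-VC1, 2385, 1988 and 1832 in T47D-PA5, and 1716, 1725 and 1783 in T47D-PA6, with a difference of -0.12 (95% interval -0.48 to 0.24, adjusted p = 0.68 in limma). PCNA, the sliding clamp of DNA polymerases, read 9229, 12698 and 13060 in T47D-VC1, 10407, 10695 and 11242 in T47D-PA5, and 8490, 9947 and 9802 in T47D-PA6, with a difference of -0.3 (95% interval -0.63 to 0.04, adjusted p = 0.24 in limma). For FOXM1 and PCNA the T47D-PA6 arrays overlapped those of T47D-VC1 and lay below those of T47D-PA5.

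The wide intervals of these genes came with replicate 1. On T47D-VC1 replicate 1 the signal was the lowest of the line for 40 of 40 members, with a median of -0.65 on the log2 scale relative to the mean of replicates 2 and 3. Of all genes, 42.3% had their lowest T47D-VC1 value on that array, and their median shift was 0.0019. T47D-PA6 replicate 1 was the lowest of its line for 32 members, with a median shift of -0.31, against 48.9% of all genes. T47D-PA5 replicate 1 was the highest of its line for 23 members and the lowest for 12, with a median shift of 0.11, where 44.1% of all genes were highest and 41.8% lowest on that array. The median absolute difference between replicates 2 and 3 over the members was 0.06 for T47D-VC1 and for T47D-PA5, and 0.04 for T47D-PA6. T47D-VC1 replicate 1 did not stand apart in its share of probes well above background, 45.8% against 44.9% and 47% on the other 2 arrays of the line. Scan run and replicate 1 cannot be told apart.

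The shift on slide 1 is given here for genes of DNA replication and of mitosis side by side, and the difference between the groups was not tested. The 11 replication members, those of licensing, helicase, clamp and nucleotide supply, shifted by a median of -0.41 on T47D-VC1 replicate 1, by 0.32 on T47D-PA5 replicate 1, where 10 of the 11 were at their highest, and by -0.07 on T47D-PA6 replicate 1. The 17 mitosis members, the kinases, checkpoint, anaphase-promoting complex, kinesins and centromere genes, shifted by -0.8, 0.04 and -0.4 on the same arrays. The mean log2 signal of the replication members, relative to T47D-VC1, was -0.28, 0.14 and 0.15 on the T47D-VC1 arrays, 0.29, -0.04 and -0.05 in T47D-PA5, and -0.31, -0.34 and -0.3 in T47D-PA6. For the mitosis members the means were -0.53, 0.25 and 0.28 in T47D-VC1, 0.15, 0.18 and 0.12 in T47D-PA5, and -0.44, 0.04 and 0.04 in T47D-PA6. The replication mean of T47D-PA6 averages members that moved opposite ways, since 6 of the 11 were lowest and 5 highest on replicate 1. The 8 licensing and helicase genes had means of -0.24, -0.44 and -0.39 on the 3 T47D-PA6 arrays, and the 3 clamp and nucleotide genes had -0.49, -0.08 and -0.07. The mitosis mean of T47D-PA6 differed between slide 1 and slide 3 by more than it differed from T47D-VC1.

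**Figure D2:**
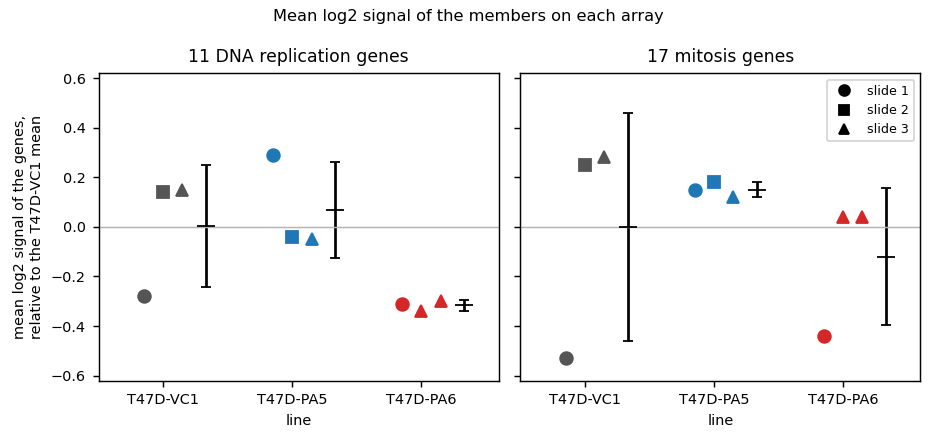
Mean log2 signal of the 11 DNA replication members (left) and the 17 mitosis members (right) on each array, relative to the T47D-VC1 mean, with one symbol per array by slide and the line's mean and SD (n = 3 arrays) beside it. On slide 1 the T47D-VC1 array is at -0.28 and -0.53, below the other 2 arrays of its line in both panels. The replication mean of T47D-PA6 lies between -0.34 and -0.3 on each array, with 6 of its 11 genes lowest and 5 highest on slide 1.

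Line differences were therefore also taken within each scan run. On slide 1, with 1 array per line and no test, all 40 members were higher in T47D-PA5 than in T47D-VC1, with a median of 0.67. Of all genes there, 10003 of 20108 were above 0, with a median of -0.0016. All 40 members were lower in T47D-PA6 than in T47D-PA5 on slide 1, with a median of -0.59. Of all genes, 11055 of 20096 were below 0, with a median of -0.05. T47D-PA6 and T47D-VC1 were closest there, with 25 members above 0, 15 below and a median of 0.06. On slides 2 and 3 the median in T47D-PA5 over T47D-VC1 was -0.16 and that in T47D-PA6 over T47D-VC1 was -0.3. A limma interaction of line with scan run called 35 of 40 members in T47D-PA5 over T47D-VC1, all with a lower difference on the later slides, where 14.5% of all genes were called in either direction. The 5 that did not pass were TOP2A, NEK2, CENPA, CENPF and PCNA. In T47D-PA6 over T47D-VC1 it called 10 members, all with a lower difference on the later slides, against 10.1% of all genes. These were MCM2, MCM3, MCM5, MCM6 and CDT1 of replication licensing, the factors E2F1 and MYBL2, and PLK1, CDC20 and CDC25C. In T47D-PA6 over T47D-PA5 it called 10, all with a higher difference later, against 9.41%, and these included RRM2, AURKB, CDC6 and MKI67. Slide 1 had 1 array per line and so no spread of its own in this test, whose 3 residual degrees of freedom come from the later slides. A single unusual array there, such as T47D-VC1 replicate 1 with its lowest value of the line for 40 of 40 members, enters each difference from T47D-VC1. As a description, T47D-PA5 was above T47D-VC1 for 40 of 40 members on slide 1 and for 6 of 40 on the later slides. Of all genes, 9193 of 20109 were above 0 in that comparison on the later slides.

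**Figure D3:**
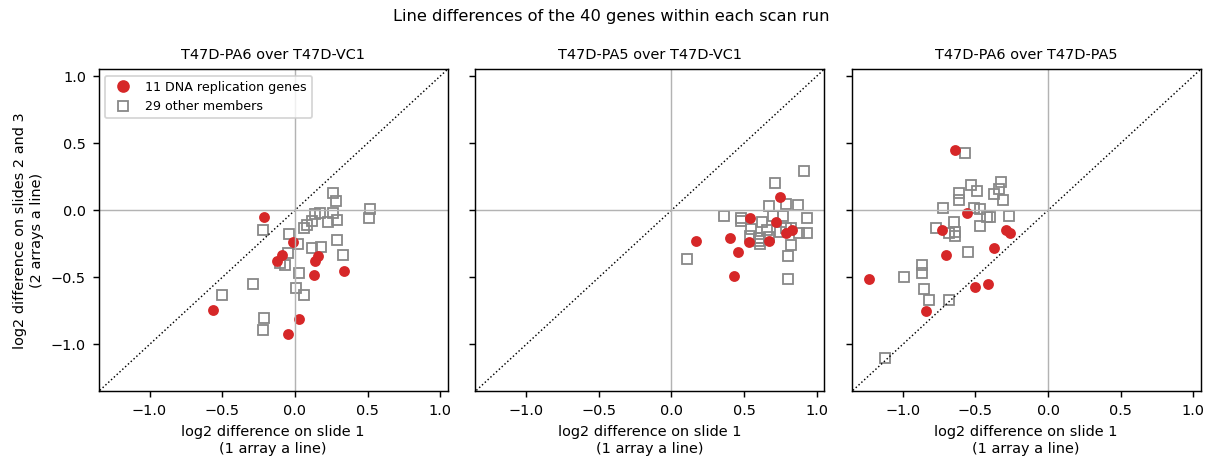
Log2 difference of each of the 40 members on slide 1 (horizontal axis, 1 array per line) against that on slides 2 and 3 (vertical axis, 2 arrays per line), for the 3 comparisons, with red circles for the 11 replication members, gray squares for the other 29 and a dotted line for equal values. In the middle panel all points lie right of 0, and all lie below the dotted line, with medians of 0.67 on slide 1 and -0.16 later.

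On slides 2 and 3 alone, with 6 arrays and 2 per line, more members passed, and most of the replication genes were among them. In T47D-PA6 over T47D-VC1, 23 of 40 members were lower and 0 higher in limma over 21066 genes, where 18.6% of all genes were called lower and 16.7% higher. The members' median was -0.3, against -0.01 for all genes. The fit has 3 residual degrees of freedom, and its p-values rest on the spread between the 2 arrays of each line, pooled over the 3 lines. Both T47D-PA6 arrays were on slide 3, while each other line had 1 array on slide 2 and 1 on slide 3. Line and slide are therefore partly confounded in it. For MCM2 and E2F1, the members with the largest falls, the difference on slide 3 alone was -0.92 and -0.88, with 1 T47D-VC1 array. Of the 23 that passed, 12 had the opposite sign on slide 1, among them MCM5, MCM6, MCM3, MCM7, CDT1, MYBL2, FOXM1, PLK1 and MKI67, and 0 had it over the 9 arrays.

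By role, 7 of the 8 licensing and helicase genes fell in that fit. MCM2 fell by 0.92 (95% interval -1.07 to -0.77, adjusted p = 0.0011), MCM5 by 0.81 (adjusted p = 0.0013) and CDC6 by 0.74 (adjusted p = 0.0024), all in limma. MCM6, CDT1, MCM7 and MCM3, the other helicase subunits and the second helicase loader, fell by 0.48, 0.45, 0.38 and 0.34. MCM4 was at -0.24 with an adjusted p of 0.056 in limma and did not pass. Of the clamp and nucleotide genes, PCNA and TYMS, the thymidylate synthase, fell by 0.38 and 0.33, and RRM2, the regulated subunit of ribonucleotide reductase, was at -0.05 (95% interval -0.21 to 0.11). All 3 transcription factors fell: E2F1 by 0.89 (adjusted p = 0.00096 in limma), MYBL2, which works with MuvB, by 0.63, and FOXM1 by 0.27.

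Among the 17 mitosis members, 7 fell in the same fit. CENPF fell by 0.8 (95% interval -1.03 to -0.57), PLK1, the polo kinase of mitotic entry, by 0.58, NEK2, a centrosome kinase, by 0.47, the motor KIF11 by 0.41, the checkpoint kinase BUB1B by 0.39, TTK, which starts the spindle checkpoint, by 0.32, and BIRC5, survivin, by 0.28. The other 10 did not pass, among them BUB1 at -0.02, CDC20 at -0.06, UBE2C at 0.01, KIF2C at -0.08 and AURKB at -0.09. Of the cyclin group 2 of 7 fell, CCNE2 by 0.55 and CDC25C, the phosphatase that switches CDK1 on, by 0.33. CCNB1 was at 0.07 (95% interval -0.1 to 0.23), CCNB2 at -0.02, CCNA2 at -0.07 and CDK1 at -0.11 (95% interval -0.26 to 0.04), and the intervals of these 4 lay within 1.5-fold in both directions. Both markers fell, TOP2A by 0.63 and MKI67 by 0.25, the latter with an adjusted p of 0.048 in limma. Whether the replication members differed more than the mitosis members was not tested, and their medians were -0.38 and -0.15.

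T47D-PA5 stood nearer to the control on the later slides. There 5 members were lower than in T47D-VC1 and 0 higher, against 8.29% of all genes lower and 10.6% higher. AURKB, the chromosomal passenger kinase, fell by 0.51 (adjusted p = 0.012 in limma) and RRM2 by 0.49 (adjusted p = 0.012 in limma), followed by CDC25C by 0.34, TYMS by 0.31 and MCM5 by 0.24. All 5 were above T47D-VC1 on slide 1, where AURKB and CDC25C were both at 0.8, and over 9 arrays CDC25C and MCM5 were above 0. In T47D-PA6 over T47D-PA5, 14 members were lower and 2 higher, against 17.5% and 16.3% of all genes. The 2 that rose were AURKB by 0.43 and RRM2 by 0.45, both of which were lower in T47D-PA5 than in T47D-VC1 there and had the opposite sign on slide 1, at -0.57 and -0.64, and the largest falls were in CENPF by 1.1, MCM2 by 0.75, E2F1 by 0.67 and NEK2 by 0.67.

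**Figure D4:**
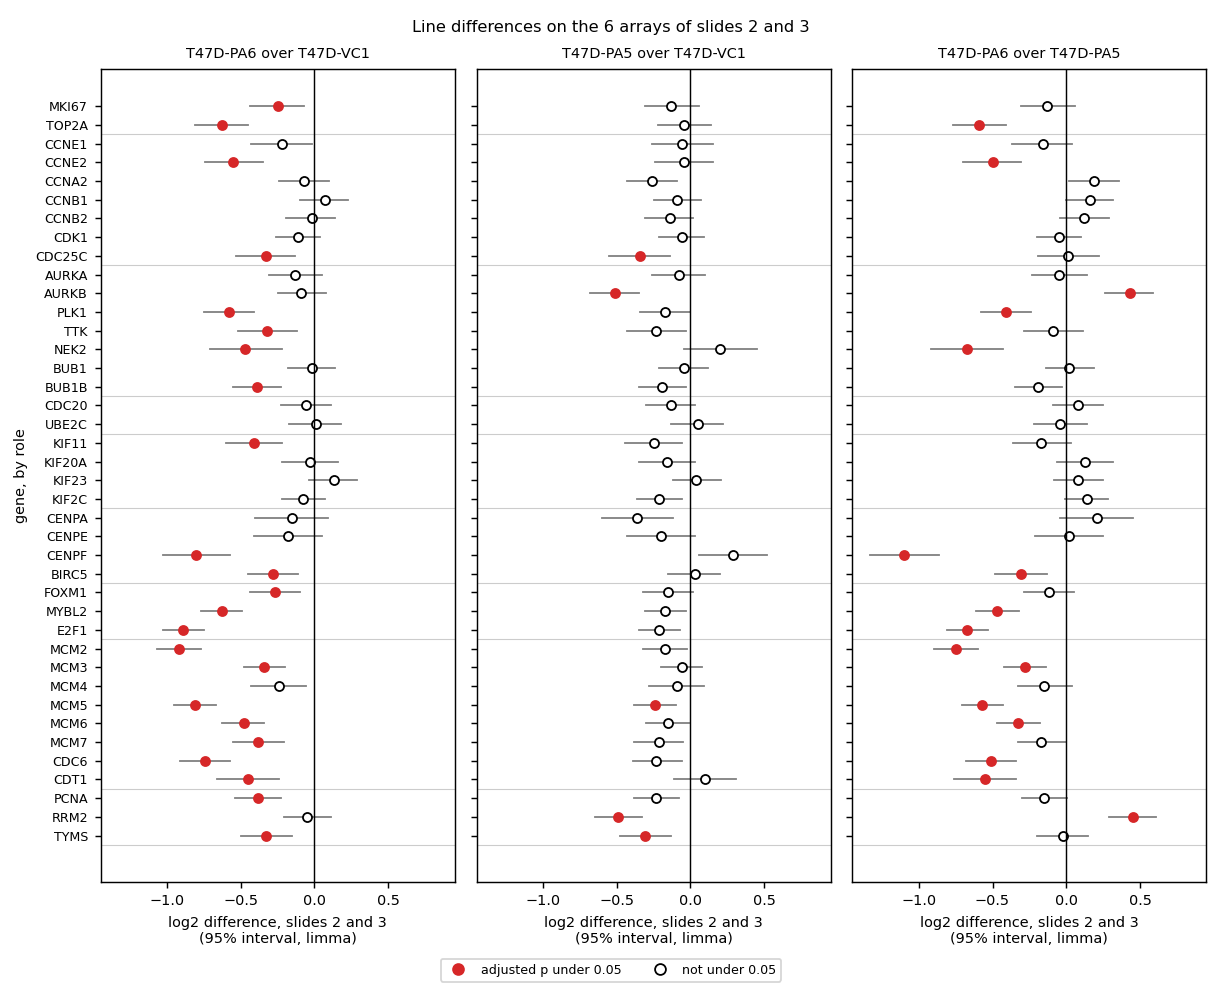
Log2 difference of each member (rows, by role) on the 6 arrays of slides 2 and 3, with 95% intervals from limma, for the 3 comparisons, filled red where the adjusted p was under 0.05. In T47D-PA6 over T47D-VC1 all of the licensing genes but MCM4 are filled and left of 0, while CCNB1, CCNB2, CDK1, BUB1, CDC20 and UBE2C sit at 0 within their intervals.

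The promoter sequences of the members show the letters that the 2 waves are known by, and 6 are printed for genes on both sides of the split seen on the later slides: E2F1, MCM6 and CDT1, which fell, CENPF, which fell most among the mitosis genes, and CCNB2 and CDC20, which did not pass. They are the 250 bases before the annotated start, 5′ to 3′ on the gene's strand, from RefSeq on GRCh38.p14, whose promoter table held 32 of the 40 members. Capitals mark matches on either strand to the cell cycle homology region letters (CHR, written TTTGAA or its variant TTCGAA), to the CCAAT box, or to E2F letters. The E2F letters searched were TTCCCGC, the variant with a central G written TTCGCGC, and the forms that begin with TTG, which are TTGCCGC and also the form TTGGCGC. In MCM6 a pair of E2F matches on opposite strands overlap in each of 2 places.
E2F1 (chr20:33686386-33686635, minus strand): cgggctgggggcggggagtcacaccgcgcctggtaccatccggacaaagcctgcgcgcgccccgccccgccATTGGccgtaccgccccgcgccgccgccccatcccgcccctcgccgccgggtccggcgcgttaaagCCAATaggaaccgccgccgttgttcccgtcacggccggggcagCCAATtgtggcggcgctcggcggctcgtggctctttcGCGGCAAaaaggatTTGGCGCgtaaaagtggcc
MCM6 (chr2:135876444-135876693, minus strand): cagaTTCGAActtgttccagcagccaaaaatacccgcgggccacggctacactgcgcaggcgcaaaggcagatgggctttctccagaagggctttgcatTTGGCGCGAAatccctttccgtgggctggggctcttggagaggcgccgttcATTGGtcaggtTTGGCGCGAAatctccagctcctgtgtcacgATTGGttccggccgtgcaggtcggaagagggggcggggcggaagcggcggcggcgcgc
CDT1 (chr16:88803539-88803788, plus strand): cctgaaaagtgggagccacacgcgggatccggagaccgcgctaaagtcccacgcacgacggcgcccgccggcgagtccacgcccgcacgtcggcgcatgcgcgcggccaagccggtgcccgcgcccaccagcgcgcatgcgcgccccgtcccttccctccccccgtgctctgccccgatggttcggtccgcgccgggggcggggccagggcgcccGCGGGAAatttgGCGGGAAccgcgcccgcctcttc
CENPF (chr1:214602945-214603194, plus strand): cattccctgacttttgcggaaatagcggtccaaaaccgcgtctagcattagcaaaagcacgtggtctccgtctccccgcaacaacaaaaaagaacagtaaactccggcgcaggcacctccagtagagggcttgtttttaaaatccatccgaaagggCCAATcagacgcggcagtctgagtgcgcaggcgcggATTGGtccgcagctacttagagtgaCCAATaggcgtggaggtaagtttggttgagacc
CCNB2 (chr15:59104896-59105145, plus strand): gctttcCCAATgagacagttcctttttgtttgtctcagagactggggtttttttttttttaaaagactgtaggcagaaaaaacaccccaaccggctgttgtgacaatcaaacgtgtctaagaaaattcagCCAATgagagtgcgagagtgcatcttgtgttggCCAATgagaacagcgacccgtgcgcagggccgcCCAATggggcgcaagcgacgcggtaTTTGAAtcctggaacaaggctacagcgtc
CDC20 (chr1:43358731-43358980, plus strand): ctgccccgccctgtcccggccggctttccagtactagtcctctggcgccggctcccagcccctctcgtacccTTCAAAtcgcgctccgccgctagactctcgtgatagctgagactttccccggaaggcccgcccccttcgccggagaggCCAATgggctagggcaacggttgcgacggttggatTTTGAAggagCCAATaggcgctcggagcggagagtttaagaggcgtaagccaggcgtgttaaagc

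E2F letters stood in 7 of the 9 replication members with a promoter in the table and in 1 of the 13 mitosis members, CENPA, against 10.9% of all 35116 promoters. CHR letters stood in 1 of the 9 replication members and in 6 of the 13 mitosis members, against 14.3% of all promoters. CCAAT letters stood in 6 of 9 and 10 of 13, against 32%. For the 6 members with more than one start in the table, a match in any of them counted. MCM2 held none of these letters in this window and CDC6 only CCAAT. CHR letters stood in MKI67, TOP2A, CDC25C, PLK1, BUB1B, KIF11 and MCM6, which passed lower in T47D-PA6 over T47D-VC1 on slides 2 and 3. The same letters stood in CCNB2, CDK1, CDC20, KIF23 and CENPA, which did not pass there. Members with E2F letters were E2F1, CDC25C, MCM3, MCM6, MCM7, CDT1, PCNA and TYMS, which passed lower there. CCNB1, CDK1, CENPA and RRM2 also held E2F letters and did not pass. Whether letters and differences go together was not tested. A match is a description of the letters and no evidence that a factor bound there in these cells. In this window E2F1 and CDT1 had 2 E2F matches each and MCM6 had 4. E2F1 also had 3 CCAAT boxes, and MCM6 had 1 CHR match and 2 CCAAT boxes. CCNB2 had 1 CHR match and 4 CCAAT boxes, CDC20 had 2 and 2, and CENPF had 3 CCAAT boxes and neither of the other 2 motifs.

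Some members lie in stretches of the genome where many genes differed between the lines. The neighbors were looked at after the members' values were seen. CENPF (hg19 probe on chromosome 1 at 214837308) and NEK2 (chromosome 1 at 211836861) both lie on the long arm of that chromosome. There the 909 genes tested from position 142621453 on had a median log2 difference of -0.57 in T47D-PA6 over T47D-PA5, 0.32 in T47D-PA5 over T47D-VC1 and -0.2 in T47D-PA6 over T47D-VC1. The 137 tested genes within 10 Mb of CENPF had a median of -0.57 in T47D-PA6 over T47D-PA5, beside -1.1 for CENPF itself. For NEK2 the 157 neighbors had -0.57, beside -0.68 for the gene. Neighbors of CDC6 (chromosome 17 at 38459354) and TOP2A (chromosome 17 at 38545709) had medians of -0.2 each in that comparison, and those of MCM2 (chromosome 3 at 127340805) had -0.13, beside -0.75, -0.68 and -0.78 for the genes. CCNE2 (chromosome 8 at 95892618) and E2F1 (chromosome 20 at 32263989) had neighbors at 0.1 and 0.02, beside -0.67 and -0.72. What part of a member's difference is shared with its neighbors was not tested.

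**Figure D5:**
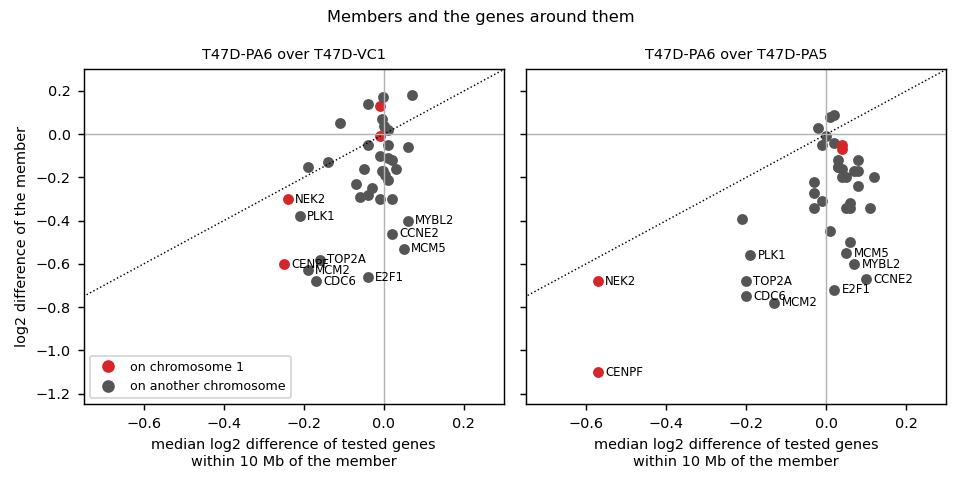
Log2 difference of each member (vertical axis) against the median of the tested genes within 10 Mb of it (horizontal axis), over 9 arrays, for T47D-PA6 against each of the other lines, with chromosome 1 in red and a dotted line for equal values. CENPF and NEK2 have neighbors at -0.57 in T47D-PA6 over T47D-PA5, while CCNE2, E2F1, MCM5 and MYBL2 have neighbors near 0.

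Genes of the cell cycle from 4 further lists were counted in the same fits, as lower or higher where they passed the same threshold on the adjusted p. Of 48 other mitosis genes tested over 9 arrays, T47D-PA6 had 1 lower than T47D-VC1 and 5 lower than T47D-PA5, with 0 higher and medians of -0.16 and -0.21. Of all genes, 5.34% and 6.06% were called lower in these 2 comparisons. SMC2, a condensin subunit, fell by 0.82 relative to T47D-VC1 (adjusted p = 0.012 in limma) and by 0.67 relative to T47D-PA5. NUF2, a kinetochore protein, and KIF14, a kinesin, fell by 1.13 and 0.95 relative to T47D-PA5. Of 45 other replication genes, T47D-PA6 had 4 lower than T47D-VC1 and 6 lower than T47D-PA5, with 0 higher and medians of -0.24 and -0.26. The shares of all genes were the same 5.34% and 6.06%. GINS4 and CDC45, which complete the active helicase with MCM, fell by 0.7 and 0.63 relative to T47D-VC1 (adjusted p = 0.019 and 0.037 in limma), and RFC3, a clamp loader subunit, by 0.62. Relative to T47D-PA5, DTL, which marks CDT1 for destruction, fell by 1.22, CLSPN, a checkpoint adaptor, by 0.88, and UHRF1, which carries DNA methylation through replication, by 0.67. Several of these also lie among genes that differed. In T47D-PA6 over T47D-VC1, neighbors within 10 Mb had medians of -0.38 for SMC2 and -0.25 for RFC3. In T47D-PA6 over T47D-PA5 they had -0.64 for NUF2, -0.57 for KIF14 and -0.57 for DTL. The neighbors of GINS4 and CDC45 were at 0.07 and -0.07 over T47D-VC1, and those of CLSPN and UHRF1 at 0.03 and 0.08 over T47D-PA5. In T47D-PA5 over T47D-VC1, 0 genes of these 4 lists passed in limma, and 5 had an unadjusted p under 0.05. Of all genes, 1.67% and 15.6% did so. On slides 2 and 3, 36 of 45 other replication genes and 25 of 49 other mitosis genes were called lower in T47D-PA6 than in T47D-VC1. None was called higher, beside the 18.6% lower and 16.7% higher of all genes given above.

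Upstream of both waves are the RB and G1 genes. Of 18 genes of the RB, E2F and MuvB families, T47D-PA6 had 3 lower than T47D-VC1 and 0 higher, with 13 below 0. Of all genes, 5.34% were called lower. RB1 itself fell by 0.54 (SE 0.09, adjusted p = 0.012 in limma), with signals of 3797, 3613 and 3608 in T47D-VC1, 3326, 3615 and 3644 in T47D-PA5, and 2737, 2388 and 2451 in T47D-PA6, and with no overlap of T47D-PA6 with the others. Its neighbors had a median of -0.29. TFDP1, the partner of E2F proteins, and LIN52, a MuvB subunit, fell by 0.48 and 0.38. Relative to T47D-PA5, 3 were lower, RB1 by 0.48, LIN9 by 0.68 and E2F2 by 0.81, and 1 was higher. Of all genes, 6.06% were called lower there. The neighbors within 10 Mb had medians of -0.18 for RB1, -0.57 for LIN9 and 0.01 for E2F2 in that comparison. Of 19 G1 cyclins, CDKs and CDK inhibitors, 1 was higher in each comparison with T47D-PA6 and 0 lower: CDK6, the cyclin D kinase, rose by 0.72 over T47D-VC1 and by 0.71 over T47D-PA5 (adjusted p = 0.033 and 0.035 in limma). Of the 20109 genes tested, 943 were called higher over T47D-VC1 and 734 over T47D-PA5. The list's median was 0.12 in T47D-PA6 over T47D-VC1. On slides 2 and 3, 9 of the 19 were higher and 6 lower in that comparison, against 16.7% and 18.6% of all genes.

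CCND1, cyclin D1, was level. Its signal was 2043, 1984 and 1930 in T47D-VC1, 2041, 2162 and 2108 in T47D-PA5, and 2023, 1891 and 1959 in T47D-PA6, and it differed by -0.02 in T47D-PA6 over T47D-VC1 (adjusted p = 0.91 in limma). CDKN1A, the p21 inhibitor of CDKs, read 174, 146 and 130 in T47D-VC1, 227, 178 and 189 in T47D-PA5, and 160, 226 and 224 in T47D-PA6. The T47D-PA6 arrays of CDKN1A overlapped those of T47D-VC1 through slide 1, with a log2 difference of 0.44 over 9 arrays (adjusted p = 0.16 in limma) and 0.71 on slides 2 and 3 (adjusted p = 0.0046 in limma). In T47D-PA5 over T47D-VC1 the difference of CDKN1A was 0.41 over 9 arrays (adjusted p = 0.32 in limma). On slides 2 and 3 it was also 0.41 (adjusted p = 0.033 in limma). T47D-PA6 differed from T47D-PA5 by 0.03 over 9 arrays and by 0.3 on slides 2 and 3 (adjusted p = 0.049 in limma). CDKN1B, the p27 inhibitor, read 907, 735 and 771 in T47D-VC1, 746, 748 and 753 in T47D-PA5, and 776, 1034 and 1001 in T47D-PA6. Its difference was 0.21 over 9 arrays (adjusted p = 0.36 in limma) and 0.44 on slides 2 and 3 (adjusted p = 0.0068 in limma). For both inhibitors the slide 1 array of T47D-PA6 lay below that of T47D-VC1, and the later arrays lay above. CDKN1C, the p57 inhibitor, differed by 1.3 over 9 arrays (adjusted p = 0.066 in limma) and by 1.82 on slides 2 and 3 (adjusted p = 0.00049 in limma) in T47D-PA6 over T47D-VC1. On the same slides CDKN1C was also higher in T47D-PA5 than in T47D-VC1, by 1.54 (adjusted p = 0.0017 in limma), and it differed by 0.28 in T47D-PA6 over T47D-PA5 (adjusted p = 0.059 in limma).

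The 11 members with several probes gave the same sign on all their probes in 10 cases in each comparison. The largest range between probes of a gene was 0.42 on the log2 scale in T47D-PA6 over T47D-VC1, 0.2 in T47D-PA5 over T47D-VC1 and 0.27 in T47D-PA6 over T47D-PA5. The other 29 members rest on 1 probe each.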

How the data were processed

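Total RNA of 9 samples, 3 for each line, was labeled with Cy3 and hybridized to single-color Agilent arrays. The authors deposited, per spot, the intensity that Feature Extraction gave after background subtraction and detrending. The labels name version 9.5.1.1 and the file headers 10.7.1.1. Their own quantile-normalized intensities, which the authors deposited as 1 table, served as an alternative. From the 60901 non-control spots, 46 to 117 per array marked as outliers were left out, the log2 values of a probe's spots were averaged, and arrays were quantile-normalized. A probe was tested when well above background on all arrays of at least 1 line, and a gene was read from its brightest tested probe, so a change in a dimmer probe or isoform is not seen. Normalization to equal distributions hides any change in total RNA per cell.

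Symbols were updated with the RefSeq gene table by symbol (31127 probes), accession (3343) and synonym (494), and the other 23237 probes kept their name. The lines were compared in 1 fit over 9 arrays (R 4.3.3, limma 3.58.1, 6 residual degrees of freedom), on slides 2 and 3 alone (3 residual degrees of freedom), and with an interaction of line and scan run. The Benjamini-Hochberg adjustment ran over all genes tested, and the fit was tested on simulated data. Alternatives were a 75th percentile shift, normexp with an offset of 50, other filters on dim probes, blocks for slide and replicate number, an intensity trend, the methods' unpaired test, fits to the compared lines alone, the mean of a gene's probes, single slides, and each array left out. The deviations of same-numbered arrays from their line means correlated at 0.132 to 0.338 in the comparisons with T47D-PA6. In T47D-PA5 over T47D-VC1 they correlated at 0.099 to 0.21, and these ranges overlap. The reported fits did not pair the arrays, and the replicate number entered only as a block among the alternatives. Any hint of pairing in these correlations is from the data only. Replicate number and slide coincided in T47D-VC1 and T47D-PA5, and in T47D-PA6 replicate 2 was on slide 3.

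The members and the 4 other lists were chosen with earlier results of these data known, so no set test and no p-value adjusted over a list alone was made. Every array's value is given for members with an adjusted p under 0.05 over 9 arrays and for MKI67, TOP2A, CCNB1, CDK1, CCNE1, PCNA, MCM2, FOXM1 and E2F1. Up to 3 genes with the lowest adjusted p are named of each other list, with CCND1, CDKN1A and CDKN1B. The authors' tests, qRT-PCR and growth assays were not analysed here.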

Additional observations from a re-analysis of the deposited data

Results flagged for a closer look

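The line differences on slide 1, which held replicate 1 of every line, were set against those on slides 2 and 3. In limma's interaction of line and scan run, 35 of 40 members passed in T47D-PA5 over T47D-VC1, 10 in T47D-PA6 over T47D-VC1 and 10 in T47D-PA6 over T47D-PA5. The shares of all genes that passed were 14.5%, 10.1% and 9.41%. The widest shifts in T47D-PA5 over T47D-VC1 were those of AURKB, with a log2 difference of 0.8 on slide 1 and -0.51 later (interaction adjusted p = 0.0096 in limma), and of CDC25C, with 0.8 and -0.34 (interaction adjusted p = 0.015 in limma). Slide 1 has 1 array per line, so the spread in this test comes from the later slides, and 1 unusual array can set it. Scan run, slide and culture cannot be told apart for replicate 1.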

How the results depend on the processing

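Over 9 arrays, the number of members called in T47D-PA6 over T47D-VC1, 1 in the reported fit, was 0 after a 75th percentile shift, without a filter on dim probes and in the methods' unpaired test, 23 on slides 2 and 3 and 3 on slide 3 alone. In T47D-PA6 over T47D-PA5, 4 members became 1 without the filter, in the methods' test and on slide 3, and 16 on slides 2 and 3. In T47D-PA5 over T47D-VC1, 0 became 5 on slides 2 and 3, and the median of 0.12 became -0.16 there, -0.18 on slide 3 and 0.67 on slide 1. The median in T47D-PA6 over T47D-PA5 was -0.59 on slide 1. Slide 3 held 1 array of T47D-VC1 and of T47D-PA5, assumed there to vary like T47D-PA6.

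For the 4 other lists together, 9 genes were called in T47D-PA6 over T47D-VC1, against 17 with normexp, 3 without the filter, 5 with only these 2 lines, 14 with an intensity trend, 0 in the methods' test and 84 on slides 2 and 3. In T47D-PA6 over T47D-PA5, 16 became 3 without the filter, 10 with slide as a block, 7 in the methods' test, 48 on slides 2 and 3 and 5 on slide 3, and in T47D-PA5 over T47D-VC1, 0 became 29 on slides 2 and 3. Members called by the interaction, 10 in each comparison with T47D-PA6, were 6 after a 75th percentile shift and 17 with normexp in T47D-PA6 over T47D-VC1, and 23 with normexp in T47D-PA6 over T47D-PA5.

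Leaving out 1 array in turn gave 0 to 9 members in T47D-PA6 over T47D-VC1, 0 to 0 in T47D-PA5 over T47D-VC1 and 1 to 10 in T47D-PA6 over T47D-PA5, with medians of -0.34 to -0.09, -0.11 to 0.24 and -0.31 to -0.21, and 1 to 31, 0 to 1 and 0 to 28 genes of the other lists. T47D-VC1 replicate 1 set the upper counts. CDC6 passed over T47D-VC1 when replicate 1 of T47D-VC1 or of T47D-PA5 was left out, and in no other of these fits. With the replicate number as a block, 1, 0 and 5 members were called in the 3 comparisons. Of the members called over 9 arrays, none turned its direction under an alternative. Of those called on slides 2 and 3, 12 of 23 in T47D-PA6 over T47D-VC1, 5 of 5 in T47D-PA5 over T47D-VC1 and 2 of 16 in T47D-PA6 over T47D-PA5 had the opposite sign on slide 1. The cause of these changes was not tested. Limits are 3 arrays of 1 line per group, relative RNA levels only, and no measure of cell numbers or cell cycle phase.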
